A study of Capra hircus with 6 samples.

Results

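The 10 genes described here mark endothelial cells, the cells that line blood vessels: *KDR*, *FLT1*, *TEK*, *TIE1*, *CDH5*, *PECAM1*, *VWF*, *EGFL7*, *ERG* and *SOX18*. Chromatin regions were taken as theirs when the region's centre lay inside the gene or within 50000 bp of either end, whatever its p, which gave 58 of the 30714 regions in the authors' deposited table. The assay was ATAC-seq, which uses a transposase, Tn5, to cut and label open DNA, on cells labelled as mammary epithelial cells from the mammary gland of the goat (*Capra hircus*). The table compares 3 libraries from the dry period, the rest between lactations, with 3 from lactation. Each library was made from 50000 cells. The sources used here do not give breed, age, any treatment other than the period, or whether a period's libraries came from separate goats.

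Each listed region has a fold change above 1, a p under 0.001 and a false discovery rate (FDR, a p adjusted for many tests), all the authors'. The regions carry names in 2 series, here set 1, with 22884 regions, and set 2, with 7830. The FDR at a given p is higher in set 2, so a threshold on the FDR stands for a different p limit in each set. The regions of a set are read as those more accessible in 1 period. Which period belongs to which set is not stated, although the title of the table puts the dry libraries first, so directions are given by set. There is no value per library in the table, so the spread between libraries and the depth behind a region are unknown. At most, the authors' p-values reflect how far these libraries spread, and that spread may be technical. The table holds differences and not levels, so it does not show how open a gene was in either period, and the labelled cell type could not be checked against marker levels. A change in the share of endothelial cells among the cells used and a change of accessibility within each such cell cannot be told apart.

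Endothelial cells form the inner wall of vessels and, in the mammary gland, the capillary net around the alveoli, which brings the blood from which milk is made. Their growth and rest are set by 2 receptor systems, the VEGF receptors and the TIE receptors. Cell junctions keep the wall tight, and transcription factors of the ETS and SOX families hold the cells in their identity. Capillary density in the gland is known to change between rest, lactation and regression.

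Both directions were found at the endothelial genes. All 10 genes had at least 1 listed region, against 79.7% of 19063 protein-coding genes on the numbered chromosomes. Of the 58 regions, 47 were in set 1 and 11 in set 2. An FDR under 0.05 was reached by 24 of them (41.4%), against 27.8% of all listed regions. Of the 24, 20 were in set 1 and 4 in set 2. By set, 20 of 47 set 1 regions passed, against 34.2% of all set 1 regions, and 4 of 11 set 2 regions, against 9.23% of all set 2 regions. The 24 lay at 7 genes (70.0%), against 51.4% of all protein-coding genes. *KDR*, *FLT1* and *ERG* had listed regions but none at an FDR under 0.05.

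**Figure D1:**
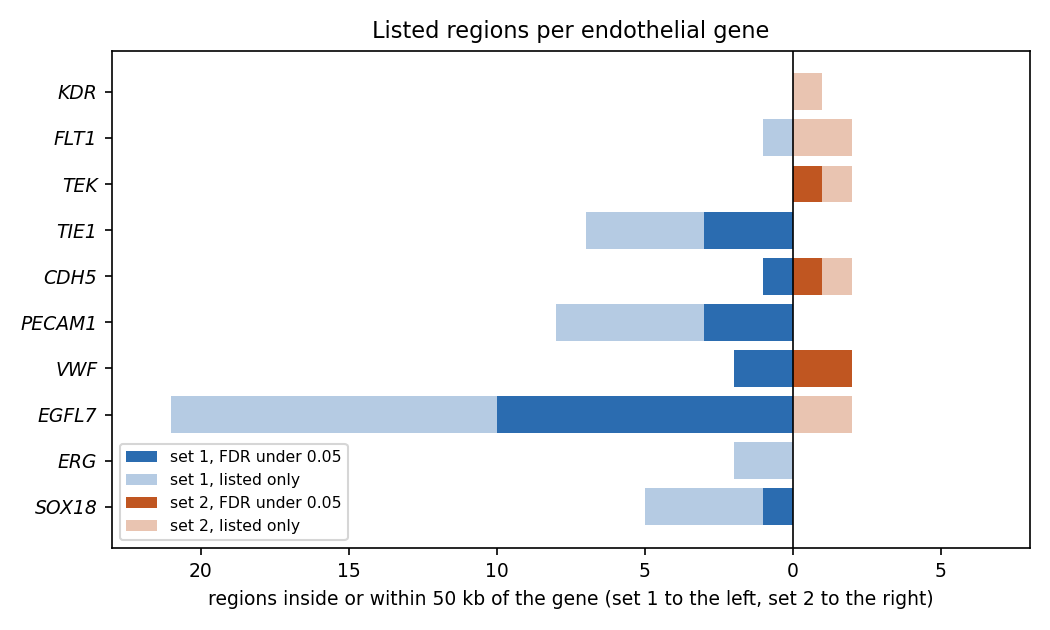
Number of listed regions (x axis) inside or within 50 kb of each gene (y axis), with set 1 to the left and set 2 to the right; dark bars are regions with the authors' FDR under 0.05 and pale bars the rest. *EGFL7* holds 23 of the 58 regions, *KDR* and *TEK* have set 2 regions and no set 1 region, and *TIE1*, *PECAM1*, *ERG* and *SOX18* have set 1 regions and no set 2 region.

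The genes fell into 3 patterns. *KDR* and *TEK* had set 2 regions and no set 1 region. *TIE1*, *PECAM1*, *ERG* and *SOX18* had set 1 regions and no set 2 region, and *FLT1*, *CDH5*, *VWF* and *EGFL7* had both. A listed set 2 region was thus found at 6 of the 10 genes, against 37.6% of all protein-coding genes. At an FDR under 0.05, 6 genes had a set 1 region (48.9% of all protein-coding genes), 3 had a set 2 region (5.06% of all), and 2 of these, *VWF* and *CDH5*, had both kinds (2.53% of all). With 10 genes, each of these shares moves by 10 points with 1 gene, and no test of the shares was made. The windows include the gene body, so a longer gene has a longer window. All of the 10 genes but *EGFL7* and *SOX18* were longer than the median protein-coding gene, of 17760 bp. The shares by gene, here and above, were not matched for gene length.

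The VEGF receptors are tyrosine kinases that carry the main growth signal of vessels. *KDR* encodes the receptor that drives endothelial growth, and *FLT1* a receptor that binds the same ligand tightly and also acts as its trap. Neither had a region at an FDR under 0.05. At *KDR*, the 1 listed region (chromosome 6, 71147101 to 71147300, 200 bp) lay inside the gene, 14822 bp from its nearer end, in set 2. The authors' deposited table gave it a fold of 1.82 (p = 0.000528, FDR = 0.652), the smallest of the 11 set 2 regions at the endothelial genes.

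*FLT1*, a gene of 207481 bp, had 3 listed regions, all inside it. A pair of set 2 regions of 200 bp each lay 100 bp apart on chromosome 12, at 54946601 to 54946800 and at 54946901 to 54947100, and count as 1 site when regions within 1000 bp are merged. By the authors' deposited table their folds were 3.57 (FDR = 0.423) and 7.60 (p = 0.000152, FDR = 0.353). The second value is the third highest fold change of all 58 regions, from a region that missed the threshold. A set 1 region of *FLT1* lay 32400 bp away from the pair, at 54913901 to 54914200, with a fold of 3.45 by the authors' deposited table (FDR = 0.161).

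The TIE receptors are the other endothelial kinase system. *TEK* encodes the receptor of the angiopoietins, which keeps vessels at rest, and *TIE1* a related receptor that pairs with it. The pair lay in opposite sets. *TEK* had 2 listed regions, both inside the gene and both in set 2. The one at chromosome 8, 17027701 to 17028000 (300 bp), lay 24.4% of the way along the gene from its lower-coordinate end, with a fold of 2.99 by the authors' deposited table (p = 4.46e-06, FDR = 0.0428). The other, 7300 bp from it at 17020201 to 17020400, had a fold of 3.10 by the authors' deposited table but an FDR of 0.712, so folds of like size fell on both sides of the threshold.

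At *TIE1* all 7 listed regions were in set 1, and only 2 of them had *TIE1* as the nearest protein-coding gene. One lay inside the gene (chromosome 3, 18053601 to 18054200, 600 bp), with a fold of 2.09 by the authors' deposited table (FDR = 0.0716). The other lay 688 bp outside the lower-coordinate end, at 18048101 to 18048300, with a fold of 1.74 by the authors' deposited table (FDR = 0.155). Neither passed an FDR of 0.05.

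The 3 set 1 regions in the *TIE1* window that did pass lay nearer to other genes. Of the 2 described here, one at 18105101 to 18105400 was inside *CDC20*, an activator of the anaphase-promoting complex, with a fold of 1.53 by the authors' deposited table (FDR = 0.0417). The other, at 18030201 to 18030400, lay 2396 bp from *LOC102173632*, 8496 bp from *C3H1orf210* and 18588 bp from *TIE1*, with a fold of 2.63 by the authors' deposited table (FDR = 0.0471).

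The junction genes also differed from each other. *CDH5* encodes VE-cadherin, the adhesion molecule of endothelial adherens junctions. Its 3 listed regions had *CDH5* as the nearest protein-coding gene. Inside the gene were 2 set 2 regions, 1 near each end. The region 4483 bp from the higher-coordinate end (chromosome 18, 35431901 to 35432400, 500 bp) had a fold of 2.40 by the authors' deposited table (p = 4.33e-06, FDR = 0.0421). The region 2920 bp from the lower-coordinate end, at 35398101 to 35398300, had a fold of 2.95 by the authors' deposited table (FDR = 0.632). Outside the gene, 11630 bp beyond the lower-coordinate end at 35383501 to 35383800, lay a set 1 region with a fold of 2.56 by the authors' deposited table (p = 4.71e-06, FDR = 0.00881). The called regions of opposite sets at *CDH5* thus had nearly equal p and folds but different FDRs, since in this table the FDR at a given p is higher in set 2.

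*PECAM1* encodes CD31, an adhesion molecule of endothelial cell borders that platelets and leukocytes also carry. Its 8 listed regions were all in set 1, and 6 of them lay inside the gene. The widest, of 1200 bp, lay 2852 bp inside the higher-coordinate end (chromosome 19, 48199501 to 48200700). It had the lowest FDR of the regions inside any of the 10 genes other than *VWF*, with a modest fold of 1.65 by the authors' deposited table (p = 3e-09, FDR = 3.91e-05). A second called region inside the gene, at 48145301 to 48145600, had a fold of 2.20 by the authors' deposited table and lay at the edge of the threshold (FDR = 0.0492).

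The other 4 regions inside *PECAM1* had folds from 1.43 to 3.37 in the authors' deposited table and did not pass. Among them, 3 formed a group with gaps of 200 bp at 60.5% to 61.9% of the way along the gene, between 48176501 and 48177800. The third called region, at 48109701 to 48110500, lay 26119 bp outside *PECAM1* and closer to *TEX2*, with a fold of 2.27 by the authors' deposited table (FDR = 0.000101).

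**Figure D2:**
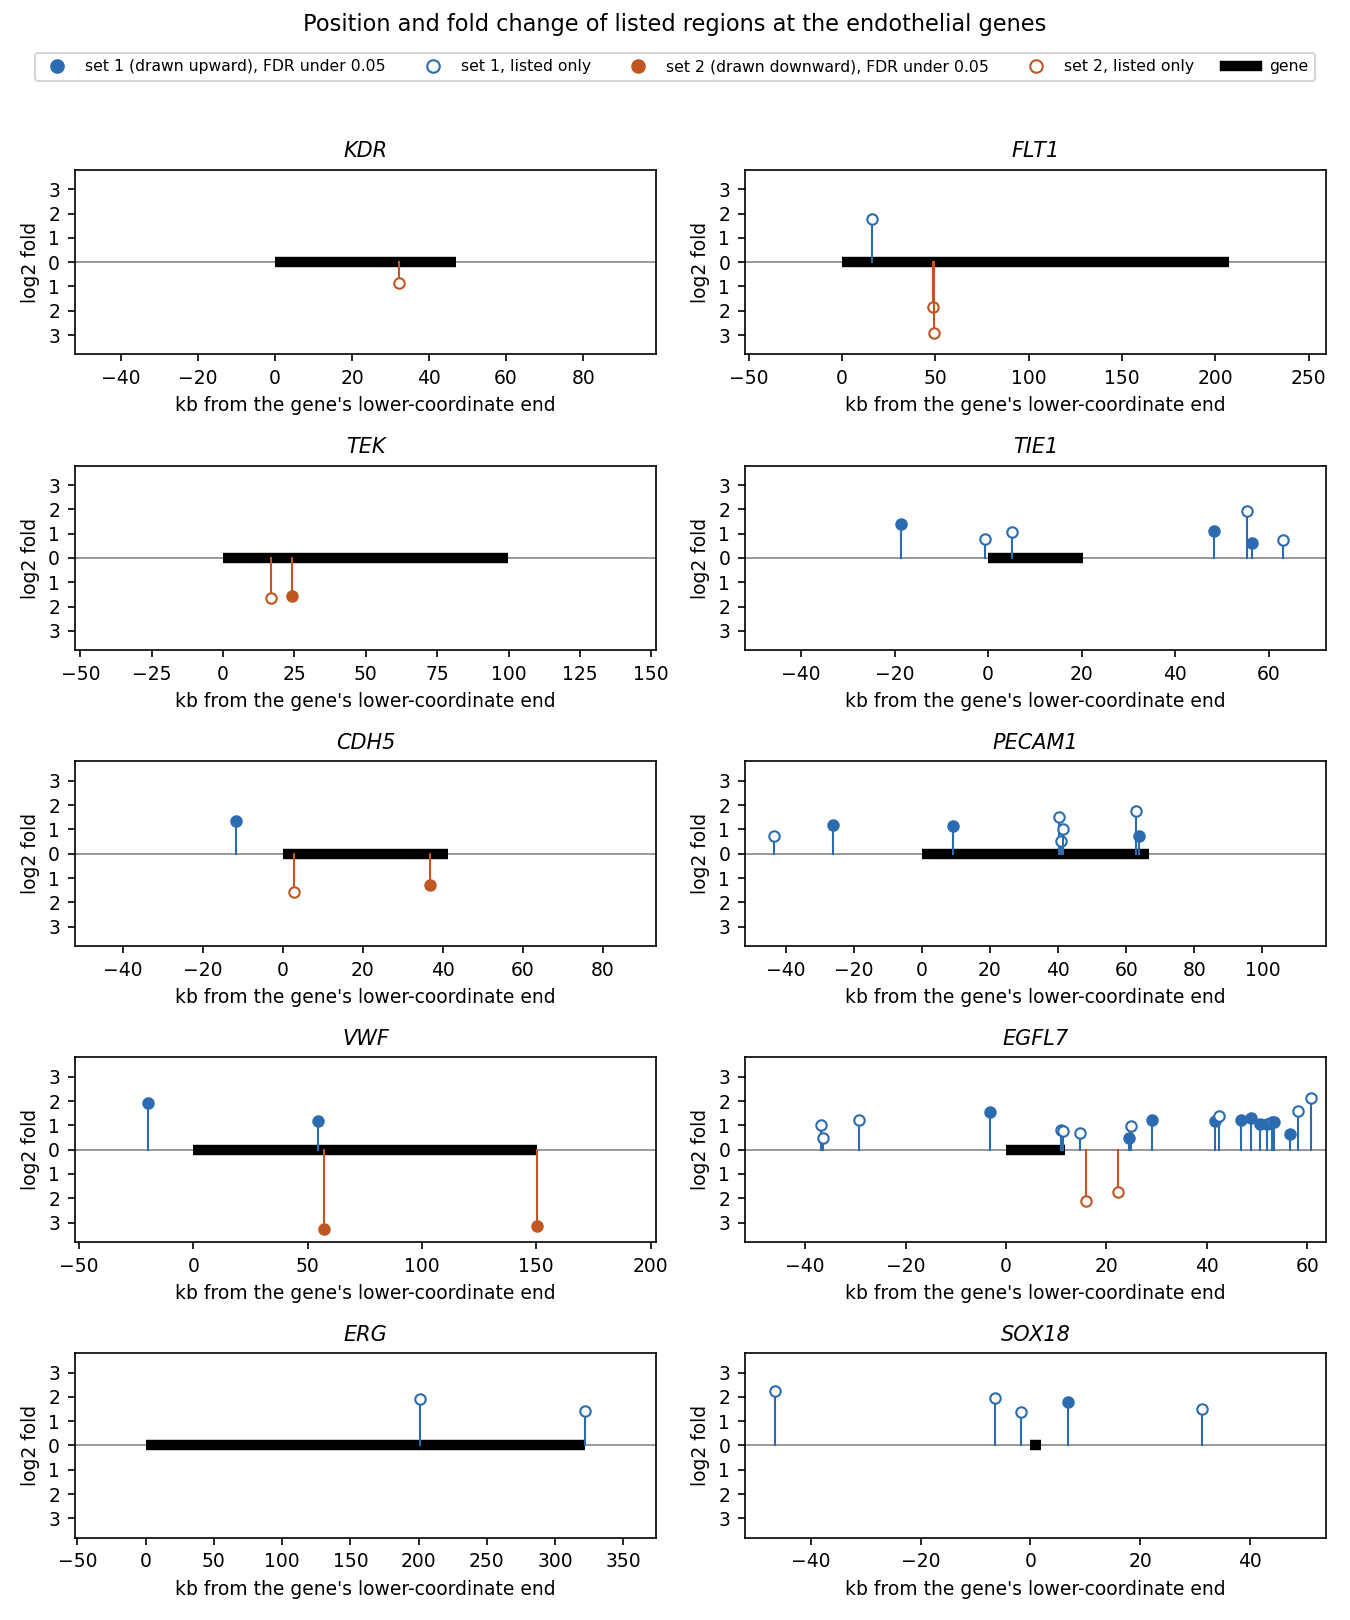
Each panel is 1 gene (black bar), with position in kb from its lower-coordinate end on the x axis and the log2 of the authors' fold change on the y axis, drawn upward for set 1 and downward for set 2; filled points passed an FDR of 0.05. Set 2 points sit on the black bar in *KDR*, *FLT1*, *TEK*, *CDH5* and *VWF*, and the longest lines of all panels are the 2 set 2 regions of *VWF*.

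Of the secreted factors, *VWF* had the largest fold changes of the 10 genes. It encodes von Willebrand factor, which endothelial cells store and release to catch platelets. All 4 of its listed regions passed an FDR of 0.05, 2 in each set. The set 2 region at chromosome 5, 103167301 to 103168100 (800 bp), lay inside the gene, 57281 bp from its nearer end. It had a fold of 9.63 by the authors' deposited table (p = 2.31e-10, FDR = 2.95e-05) and was number 48 of 7830 set 2 regions by p. The other set 2 region, at 103260401 to 103261000 (600 bp), was centred 148 bp inside the higher-coordinate end and ran past it. Its fold was 8.76 by the authors' deposited table (FDR = 0.0184).

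The set 1 regions of *VWF* had smaller folds. The one inside the gene, at 103164501 to 103164900, had a fold of 2.27 by the authors' deposited table (p = 8.18e-07, FDR = 0.0026). Its centre was 3000 bp from that of the set 2 region with the 9.63-fold change, so that 2 called regions of opposite direction lay side by side in the gene. Over the 7664 set 2 regions on numbered chromosomes, 4.95% had a set 1 region centred within 3000 bp. At the endothelial genes 3 of 11 had one: the *VWF* region, at exactly this limit, and the 2 near *EGFL7* described next, which were not called. Those 2 lay in a window with 21 set 1 regions, and the shares were not matched for the density of regions. The set 1 region outside *VWF*, at 103090301 to 103090700, lay 19919 bp from *VWF*, 18858 bp from *CD9*, a tetraspanin of many cell types, and 725 bp from a pseudogene, with a fold of 3.74 by the authors' deposited table (FDR = 0.0031).

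*EGFL7* encodes a small factor that endothelial cells secrete into the matrix, and holds within it *MIR126*, the gene of an endothelial microRNA. Its window held 23 listed regions, 21 in set 1 and 2 in set 2, of which 10 in set 1 passed. Only 0.477% of protein-coding genes had as many listed regions within 50000 bp, against a median of 3. Most lay closer to neighbours: *EGFL7* was the nearest protein-coding gene for 6 regions, *AGPAT2*, an acyltransferase of phospholipid and fat synthesis, for 6, and *FAM69B* for 11.

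Of the 6 regions nearest to *EGFL7*, all in set 1, 1 passed an FDR of 0.05. It lay 3121 bp outside the lower-coordinate end (chromosome 11, 103490601 to 103491000, 400 bp), with a fold of 2.94 by the authors' deposited table (p = 6.15e-06, FDR = 0.0106). The 2 regions inside the gene, at 103504801 to 103505000 and 103505201 to 103505400, lay 821 and 1221 bp from *MIR126*. Their folds by the authors' deposited table were 1.76 (FDR = 0.0753) and 1.70 (FDR = 0.179), and neither passed.

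Beyond the higher-coordinate end of *EGFL7*, the lowest p of the 58 regions belonged to a set 1 region of 900 bp at 103522601 to 103523500. This region lay 17389 bp from *EGFL7*, 4587 bp from *AGPAT2* and 2106 bp from *LOC108637175*. It was number 16 of 22884 set 1 regions by p, with a fold of 2.31 by the authors' deposited table (p = 2.39e-18, FDR = 8.98e-13). The other called region with *AGPAT2* as the nearest protein-coding gene, inside *AGPAT2* at 103518301 to 103518600, had a fold of 1.39 by the authors' deposited table (FDR = 0.00855). The 2 set 2 regions of the window also lay inside *AGPAT2*, at 103509801 to 103510000 and 103516101 to 103516300, with 4.34 (FDR = 0.569) and 3.31 (FDR = 0.545) in the authors' deposited table.

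Of the 11 regions nearest to *FAM69B*, 7 passed, all in set 1. Their fold changes lay between 1.55 and 2.44 in the authors' deposited table. In order of position they were at 103535301 to 103535800 (FDR = 2.98e-05), 103540301 to 103541100 (FDR = 0.0035), 103542201 to 103543100 (FDR = 2.37e-07) and 103543301 to 103545600 (FDR = 0.000129) in the authors' deposited table. The last of these, at 2300 bp, was the widest of the 58. The other 3, in the authors' deposited table, were at 103545801 to 103546100 (FDR = 0.00424), 103547201 to 103547400 (FDR = 0.0493) and 103550301 to 103550600 (FDR = 0.0324). Of the 7, 4 lay inside *FAM69B*, 1 lay 2197 bp outside it and the last 2 lay inside *LOC102168552*, and all were 29889 bp or more from *EGFL7*.

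The transcription factors had set 1 regions and no set 2 region. *ERG*, an ETS factor that keeps endothelial genes on, is the longest of the 10 genes at 322032 bp and had 2 listed regions, the fewest per 100 kb of window (0.474). One lay 438 bp inside its higher-coordinate end (chromosome 1, 150881501 to 150881700), with a fold of 2.64 by the authors' deposited table (FDR = 0.13). The other lay deep in the gene, at 150761101 to 150761400, with a fold of 3.72 by the authors' deposited table (p = 0.000134, FDR = 0.0808). Neither passed.

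*SOX18*, a factor of vessel and lymphatic development, is the shortest gene at 1882 bp and had no region inside it. Of the 5 set 1 regions around it, 1 passed: the region 5050 bp beyond its higher-coordinate end (chromosome 13, 53150301 to 53150700, 400 bp), with a fold of 3.42 by the authors' deposited table (p = 3.97e-05, FDR = 0.0373). A region 1669 bp outside the lower-coordinate end, at 53141801 to 53142000, had a fold of 2.60 by the authors' deposited table (FDR = 0.151). The remaining 3 lay closest to *TCEA2*, *PRPF6* or *NPBWR2*, with folds from 2.80 to 4.67 in the authors' deposited table, and none passed.

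Set 2 regions made up a larger share inside these genes than around them, which was not tested. Of the 22 regions inside the genes, 9 were in set 2 (40.9%; the 95% Wilson interval of 23.3% to 61.3% is for counting error alone), against 25.8% of all listed regions inside protein-coding genes. Of the 36 outside, 2 were in set 2 (5.56%, 1.54% to 18.1%), both in *AGPAT2*, against 19.8% of all listed regions outside but within 50000 bp of a protein-coding gene. All 4 set 2 regions with an FDR under 0.05 lay inside *VWF*, *TEK* or *CDH5*. They stood beside 3 called set 1 regions inside genes, in *VWF* and *PECAM1*, so that 4 of 7 called regions inside the genes were in set 2, against 8.67% of all called regions inside protein-coding genes.

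Counted by gene, 9 of the 10 had a listed region inside, against 7575 of 19063 protein-coding genes, not matched for gene length. The regions inside were in set 2 alone at *KDR*, *TEK* and *CDH5* (3 of 9, against 16.5% of all genes with a region inside). They were in both sets at *FLT1* and *VWF* (2 of 9, against 17.5%), and in set 1 alone at *TIE1*, *PECAM1*, *EGFL7* and *ERG* (4 of 9, against 66.0%). The genes with a set 2 region inside were between 41354 and 207481 bp long. Of the 5 without one, *SOX18*, *EGFL7* and *TIE1* were shorter than this range, *PECAM1* lay within it and *ERG* above it, and the part of gene length in the pattern was not tested.

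Over all 58 regions, the set 2 share of 19.0% (95% Wilson interval 10.9% to 30.9%) lay near the 25.5% of all listed regions. Without the *EGFL7* window, 9 of 35 regions (25.7%) were in set 2. Of the 30 regions with an endothelial gene as their nearest protein-coding gene, 9 (30.0%) were in set 2. Among called regions the set 2 share was 16.7%, against 8.46% of all called regions, and without the *EGFL7* window it was 4 of 14. At an FDR under 0.01, 1 of 13 regions was in set 2, the 800 bp region inside *VWF*.

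**Figure D3:**
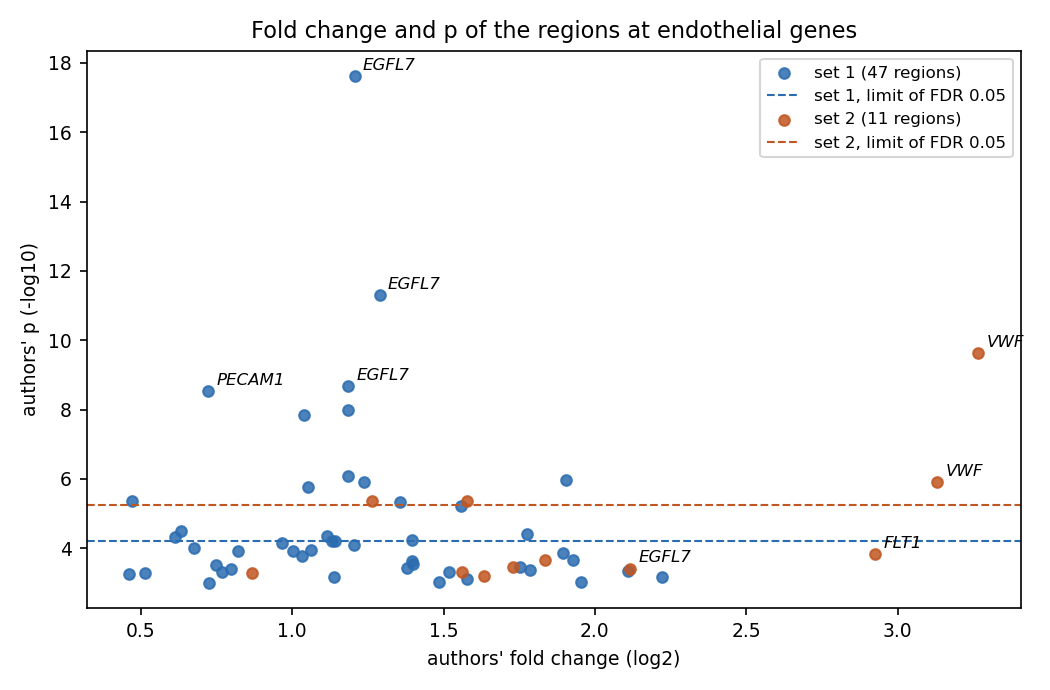
The log2 of the authors' fold change (x axis) and −log10 of the authors' p (y axis) of the 58 regions, set 1 in blue and set 2 in orange; dashed lines are the largest p that still had an FDR under 0.05 in each set, 6.21e-05 in set 1 and 5.63e-06 in set 2. The 2 *VWF* regions stand apart at the right, and the *FLT1* region with a 7.60-fold change lies under both lines.

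The median fold change was higher in set 2, as in the table as a whole. The median fold by the authors' deposited table was 2.27 over the 47 set 1 regions (1.38 to 4.67) and 3.31 over the 11 set 2 regions (1.82 to 9.63), beside 2.39 and 3.59 over all listed regions of each set. The largest p with an FDR under 0.05 was 11.0 times lower in set 2. Of the regions that missed it, 27 set 1 regions had an FDR from 0.0539 to 0.267 and 7 set 2 regions from 0.353 to 0.712 in the authors' deposited table. Those 7, at *KDR*, *FLT1*, *TEK*, *CDH5* and in the *EGFL7* window, were all 200 bp wide, the smallest width listed, whereas the 4 called ones were 300 to 800 bp wide. Of all listed set 2 regions, 52.5% were 200 bp wide. Set 1 was split in the same way: 24 of its 47 regions here were 200 bp wide, but only 2 of the 20 called ones.

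The share of regions at gene ends was close to that over all protein-coding genes. Of the 58, 8 (13.8%) were centred 3000 bp or less from an end of their gene, against 14.9% of all pairs of a region and a protein-coding gene within 50000 bp. They lay at 7 of the 10 genes, against 36.4% of all protein-coding genes. Of the 8, 2 passed, against 30.3% of all such pairs at gene ends: the set 2 region at the higher-coordinate end of *VWF* and the set 1 region of 1200 bp in *PECAM1*. The gene table gives no strand, so the transcription start of a gene is not known here. At the border of the 50000 bp limit, the farthest region taken in was 49039 bp from *EGFL7*, in set 1, with a fold of 4.31 by the authors' deposited table (FDR = 0.171). The closest one left out was 51902 bp from *VWF*, in set 2, with a fold of 5.73 by the authors' deposited table (FDR = 0.323).

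Further genes of vessel growth and endothelial function had called regions about as often as all protein-coding genes. From a list of 77, 70 matched a gene, and 36 of these (51.4%, against 51.4% of all) had a region at an FDR under 0.05 within 50000 bp. Counting called regions alone, 32 of the 36 had set 1 regions and no set 2 region, 4 had the reverse (5.71% of the 70 had a called set 2 region, against 5.06% of all), and none of the 36 had called regions of both sets. By role, a called region was found at 6 of 11 ligands, 4 of 13 receptors, 7 of 12 junction and surface genes, 12 of 24 transcription factors, 6 of 8 genes of enzymes and haemostasis and 1 of 2 lymphatic markers.

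The 4 with a called set 2 region each came from another role. *UNC5B*, a netrin receptor of vessel guidance, had one inside it (chromosome 28, 18216701 to 18217200), with a fold of 3.41 by the authors' deposited table (FDR = 0.00215). That of *TAL1*, a factor of blood and endothelial development, lay 7314 bp from the gene (chromosome 3, 21827001 to 21827600), with a fold of 3.52 by the authors' deposited table (FDR = 0.019). The regions of *AQP1*, a water channel of capillaries, and *BMP10*, a ligand of endothelial receptors, lay 28682 and 48686 bp away, with 2.99 (FDR = 0.0075) and 6.50 (FDR = 0.00653) in the authors' deposited table.

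The lowest set 1 FDR of this list was that of *ETS1*, an ETS factor, with a region inside the gene (chromosome 29, 31146901 to 31147600) and a fold of 2.19 by the authors' deposited table (FDR = 1.31e-08). *EPAS1*, which encodes the hypoxia factor HIF-2 alpha, had a region 1330 bp outside it (chromosome 11, 28316901 to 28318000), with a fold of 4.49 by the authors' deposited table (FDR = 1.38e-05). The set 1 regions of 5 others of this list with a low FDR, *NOS3*, *PLXND1*, *HHEX*, *ADAMTS13* and *ECE1*, lay 20091 to 49195 bp from the genes. Of the 58 listed regions inside genes of the whole list, 17 were in set 2 (29.3%, against 25.8% of all listed regions inside protein-coding genes). By role these were 8 of 13 at receptors, 3 of 11 at ligands, 5 of 19 at transcription factors, 1 of 3 at lymphatic markers, 0 of 9 at enzymes and haemostasis and 0 of 3 at junction and surface genes.

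Marker genes of other cell types were counted in the same way. Of 11 epithelial markers, the labelled cell type, 10 had a called set 1 region and 0 a called set 2 region. The counts for set 1 were 2 of 5 fibroblast markers, 1 of 5 leukocyte markers and 2 of 4 pericyte markers, with 0 called set 2 regions in each of these lists. Of all protein-coding genes, 48.9% had a called set 1 region and 5.06% a called set 2 region. With so low a share for set 2, a count of 0 in lists of 4 to 11 genes says little. Over all listed regions, called or not, the set 2 share was 7.81% of 64 regions at epithelial markers (a region near several markers of a list counts once), 26.7% of 15 at fibroblast, 21.4% of 14 at leukocyte and 25.0% of 16 at pericyte markers, beside the 19.0% of 58 at the endothelial genes. Inside the genes alone, the set 2 share was 1 of 19 regions at epithelial markers, 4 of 7 at fibroblast, 2 of 3 at leukocyte and 3 of 6 at pericyte markers, beside the 9 of 22 at the endothelial genes, so the share inside was higher than the endothelial one in 3 of these 4 lists. With 4 to 11 genes in a list these counts are a description, and the lists were not tested against each other.

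**Figure D4:**
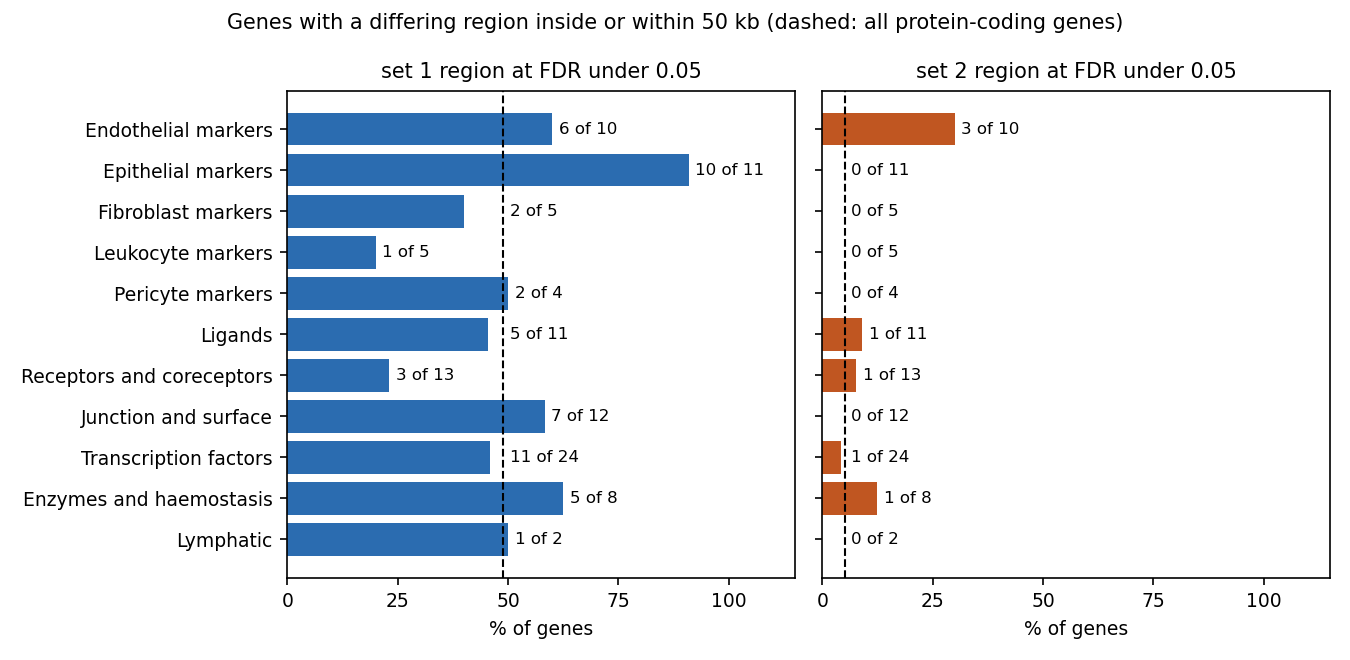
Percent of the genes of each list (x axis) that had a set 1 region (left) or a set 2 region (right) at an FDR under 0.05 inside or within 50 kb, with the counts beside the bars; dashed lines are all protein-coding genes, 48.9% and 5.06%. Called set 2 regions are at 3 of 10 endothelial markers, at 0 of the markers of the other 4 cell types and at 4 of the 70 further vascular genes.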

How the data were processed

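ATAC-seq regions of 3 dry period and 3 lactation libraries were analysed. Bowtie2 2.2.5 and MACS2 are the tools in the submitters' processing notes, with no roles. For the caller of the differences, the genome build, any Tn5 shift and any removal of duplicates, nothing is given in the sources used here. The authors deposited 1 table with a linear fold (a ratio), a p-value, an FDR (a q-value) and a score per region, and the region width, which is in another unit (bp). The deposited score equals the fold times 1 constant per set in all rows, within a relative tolerance of 1e-06, and was not used. Depth per library is unknown. 

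Gene positions came from a RefSeq table of assembly ARS1.2, whose coordinates are not printed. The match was checked by the share of regions 1000 bp or less from a gene end, which was highest with the genes of the same chromosome for 29 of 29 chromosomes. Counts, shares, medians and Wilson intervals were computed with Python 3.11.15, pandas 2.3.3 and SciPy 1.17.1; assignment to genes was tested on simulated data. Regions are not replicates, so no test was run beyond the authors' FDR at 0.05. The members, lists and naming rule were chosen with earlier results of these data known: all 10 genes, every called region, the lowest-p region where none was called, regions inside or within 3000 bp, and up to 8 listed genes per set; 2 of the regions this rule names are not reported here. No sequence was used, so the planned motif search was not run.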

Additional observations from a re-analysis of the deposited data

How the results depend on the processing

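The counts depended on the window and on which gene a region was given to. Listed regions numbered 58 with the 50000 bp window, 24 within 3000 bp, 29 within 10000 bp, 30 where the endothelial gene had to be the nearest protein-coding gene and 27 where it had to be the nearest gene of any kind. Called regions numbered 24, and 7, 9 and 10 under the first 3 of these settings. They numbered 13 at an FDR under 0.01. The set 2 share of 19.0% became 37.5% within 3000 bp, 34.5% within 10000 bp, 66.7% of 6 regions whose log2 fold was 2 or more, and 7.69% at an FDR under 0.01. Leaving out 1 gene at a time gave 16.1% to 25.7%. By the authors' deposited table, the set 1 median fold of 2.27 became 2.20, 2.27 and 2.29 with windows of 3000, 10000 and 100000 bp. The set 2 median fold of 3.31 became 3.10, 3.34 and 3.31 in the same order. These windows are nested and share regions, so the medians are not independent of each other. Merging regions of 1 set within 1000 bp, chosen after seeing the data, gave 45 listed and 22 called sites, with 22.2% of the listed ones in set 2. No paired analysis was possible because the table holds no value per library, and for the same reason libraries could not be left out. Motifs in promoters were not searched, since no sequence was used here. With depth per region unknown, a region missing from the table is not shown to be unchanged.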
